A study of Mus musculus with 13 samples.

Results

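The alpha and beta tubulin genes were followed through meiotic maturation in 13 single mouse oocytes. The set held the 10 genes Tuba1a, Tuba1b, Tuba1c, Tuba4a, Tubb2a, Tubb2b, Tubb3, Tubb4b, Tubb5 and Tubb6, taken by their symbols. All 10 were found in both count tables, which list 18939 genes, and in the FPKM table, which lists 49686. Oocytes came from C57BL/6 females of 3 to 4 weeks, collected 48 h after PMSG. In every group, mRNA for FBL–GFP, a tagged fibrillarin that marks the nucleolus, had been injected into the oocytes. They were then kept for 6 h in Cilostamide, a phosphodiesterase inhibitor that holds oocytes at the germinal vesicle (GV) stage. The FBL–GFP pattern sorted them into NSN oocytes, whose chromatin does not surround the nucleolus, and SN oocytes, whose chromatin does. NSN GV oocytes (3) and SN GV oocytes (3) were sequenced at that stage, and 3 NSN-MII and 4 SN-MII oocytes after release and maturation to metaphase II. NSN-MII oocytes are therefore those NSN oocytes that completed maturation. The number of females is not given, so p-values measure the spread between oocytes, some of which may share an animal.

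Microtubules are polymers of a dimer of alpha and beta tubulin. Each subunit is encoded by several genes, the isotypes, whose proteins are close to identical in the body and differ mostly at their acidic C-terminal end, where motors and modifying enzymes act. The mouse oocyte builds its meiotic spindles without centrioles. Tubulin newly made during maturation comes from stored maternal mRNA, since transcription stops before meiosis resumes. Much maternal mRNA is removed during maturation. The paper reported nascent RNA synthesis in NSN GV oocytes and almost none in SN GV oocytes. Tubb3 is best known as the isotype of neurons, Tubb4b and Tubb5 are used by most cell types, and Tubb6 is a more divergent beta isotype.

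Tubulin sequences of 3 kinds are shown, all taken from GENCODE M21 transcripts of GRCm38 (mm10) and written 5′ to 3′. The first is the start of the reading frame, because excess tubulin dimer triggers decay of tubulin mRNA through TTC5, which reads the first residues as they leave the ribosome. The first 24 coding bases follow, with the first 12 in capitals. Tuba1a, Tuba1b and Tuba1c shared these 12 bases. Tubb3 and Tubb4b shared theirs too.
Tuba1b: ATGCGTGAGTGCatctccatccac
Tuba4a: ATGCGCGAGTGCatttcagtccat
Tubb2a: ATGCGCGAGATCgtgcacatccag
Tubb3: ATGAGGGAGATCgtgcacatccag
Tubb4b: ATGAGGGAGATCgtgcacctgcag

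The second is the end of the reading frame, where isotypes differ and where near-identical genes can be told apart or not. The last 60 coding bases of 6 genes are given, with the stop codon in capitals. Over these bases Tubb2a and Tubb2b differed at 3 positions. The codon before the stop was tat, a tyrosine codon, in Tuba1c and gag in Tuba4a.
Tuba1c: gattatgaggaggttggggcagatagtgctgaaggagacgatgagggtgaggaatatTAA
Tuba4a: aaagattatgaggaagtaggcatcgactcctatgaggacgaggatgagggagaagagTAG
Tubb2a: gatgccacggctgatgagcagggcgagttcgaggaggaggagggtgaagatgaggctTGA
Tubb2b: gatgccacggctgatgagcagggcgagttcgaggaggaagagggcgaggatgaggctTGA
Tubb3: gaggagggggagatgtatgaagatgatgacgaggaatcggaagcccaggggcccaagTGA
Tubb4b: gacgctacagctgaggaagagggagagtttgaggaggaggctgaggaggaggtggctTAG

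The third is the cytoplasmic polyadenylation element, a short U-rich run near the 3′ end of some maternal mRNAs through which poly(A) tails are lengthened during maturation. The forms TTTTAT and TTTTAAT were searched on the sense strand in the last 100 bases of the annotated 3′ UTR. At least 1 of them was present in 17.9% of the 19358 genes with a 3′ UTR of that length or more, TTTTAT in 13.9% and TTTTAAT in 5.04%. Of the 10 tubulin genes, only Tubb3 and Tubb2b held TTTTAT in this window, and none held TTTTAAT. In Tubb3 the element began 94 bases before the transcript end and in Tubb2b 31 bases. The 30-base windows follow, with the element in capitals. Tubb3 was the 1 gene of these 10 that rose between the stages, and Tubb2b was among the 9 that fell.
Tubb3: tctgtTTTTATggtttgttttgttttttta
Tubb2b: atcatTTTTATgatgctgggaatcaaaccc

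All 10 genes are protein coding, and the annotated transcript used here had 4 exons in each. The 3 Tuba1 genes lie together on chromosome 15. Tuba1b spans 98931425 to 98934565 and Tuba1a 98949837 to 98953703, both on the minus strand, and Tuba1c spans 99029891 to 99038110 on the plus strand. Tuba4a lies on the minus strand of chromosome 1, from 75214228 to 75219865. Tubb2a (34074274 to 34078007) and Tubb2b (34126748 to 34130466) are neighbors on the minus strand of chromosome 13. Tubb3 spans 123411424 to 123422015 on the plus strand of chromosome 8. Tubb4b lies at 25222160 to 25224702 on the minus strand of chromosome 2, Tubb5 at 35833921 to 35838306 on the minus strand of chromosome 17, and Tubb6 at 67390717 to 67402749 on the plus strand of chromosome 18. Reads cannot always be given to 1 of these genes. Of the 100-base stretches of its transcript, Tuba1c shared 53.4% with another tubulin transcript compared, Tuba1b 52.3%, Tuba1a 38.4%, Tubb2a 35.9% and Tubb2b 26.1%. The other 5 genes shared none. Their counts were whole numbers in all 13 libraries for Tubb3 and Tubb6, and not whole in 5 libraries for Tubb4b, in 3 for Tuba4a and in 1 for Tubb5. Coding sequences of Tuba1a and Tuba1b were 98.3% identical, those of Tuba1b and Tuba1c 97.9% and those of Tubb2a and Tubb2b 96.5%. The split between these near-copies therefore rests on RSEM's estimate. Other annotated genes overlap some of them. Gm20388 covers Tubb3 on the same strand, with at most 1.02 FPKM in any library, and Stk16 overlaps 1379 bases of Tuba4a on the opposite strand, with at most 6.99 FPKM. Gm49450 overlaps 3715 bases of Tuba1a and 2429 of Tuba1b on the same strand, with at most 0.6 FPKM. Gm41396 overlaps 241 bases of Tuba1b on the opposite strand, with at most 4.44 FPKM. In MII oocytes Tuba1a had a mean of 0.161 and Tuba1b of 10.2 FPKM. The part of these overlaps in the low MII values was not tested.

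Total counts per library were between 7140416 and 8846287. The oocyte markers (10 genes, among them Zp3 and Gdf9) summed to between 17480 and 26363 CPM and none was at 0 in any library. The 16 cumulus and granulosa cell markers summed to between 74.4 and 101.5 CPM in GV and between 110.5 and 197 CPM in MII oocytes, with 6 to 7 and 7 to 11 of them at 0. Of these sums, Cyp19a1 alone held 37.8 to 67.3 CPM in GV and 77.0 to 158 CPM in MII oocytes. Foxl2, Fst and Ptx3 were at 0 in every library. Genes detected numbered 12699 to 13342 in GV and 11593 to 12522 in MII oocytes, and the 10 most abundant genes took 5.47% to 6.597% and 8.92% to 12.1% of the counts. The sum of cumulus and granulosa cell markers, the genes detected and the share of the 10 most abundant genes did not overlap between the stages. The same held for every tubulin gene of the set but Tuba1a. Total counts and oocyte marker sums overlapped. The part of these measures in the tubulin changes was not tested. The third NSN-MII oocyte had the highest sum of cumulus and granulosa cell markers (197 CPM, of which Cyp19a1 gave 158). It also had the fewest genes detected and the lowest TMM factor (0.799). CPM are counts per 1000000 of the library total scaled by edgeR's TMM factor, which assumes that most genes do not differ between libraries. CPM and FPKM are relative to the RNA sequenced and not amounts per oocyte. Reverse transcription was primed on poly(A), so that fewer molecules and shorter poly(A) tails cannot be told apart.

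Between the GV and MII stages, 9 of the 10 tubulin genes fell and 1, Tubb3, rose. Each was called by edgeR's quasi-likelihood test at an adjusted p under 0.05. Calls were frequent in this comparison: of the 11375 genes in the fit, 68.5% passed, with 31.7% higher and 36.8% lower in MII oocytes. The median log2 change was −3.10 over the tubulin genes and −0.10 over all genes tested. The 10 genes took 0.501% ± 0.0505 (SD, n = 6) of all counts in GV oocytes and 0.109% ± 0.0122 (SD, n = 7) in MII oocytes, and the ranges did not overlap.

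**Figure D1:**
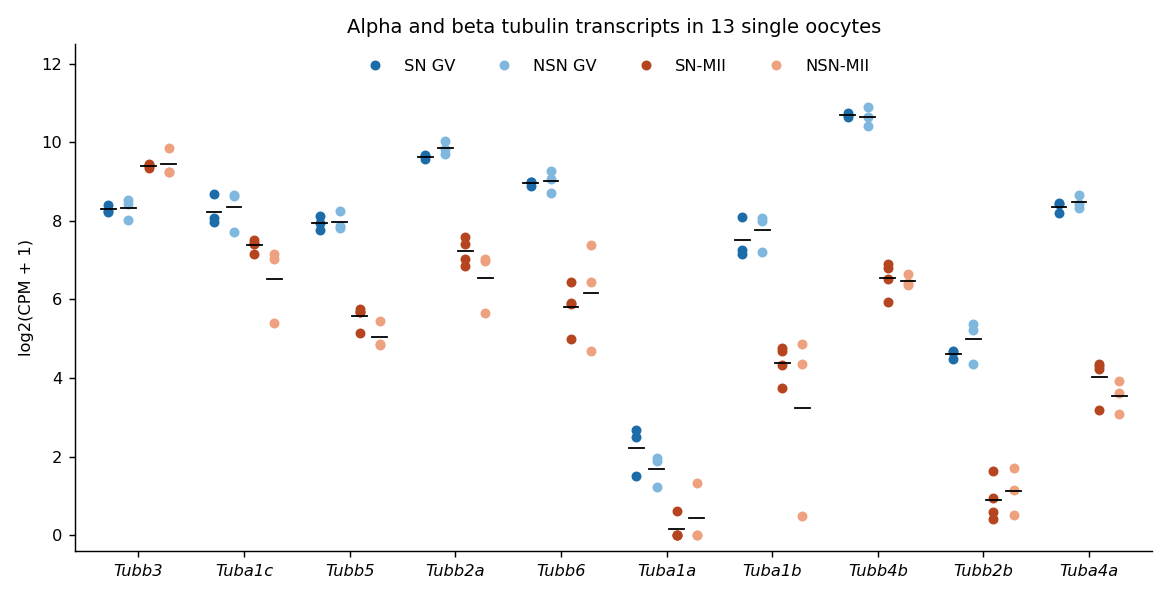
Levels of the 10 tubulin genes, as log2(CPM + 1), in the 13 oocytes (points; the black line is the mean of the group), ordered from the largest rise to the largest fall between stages. Tubb3 lies higher in the MII oocytes and the other 9 genes lower, and SN and NSN points of a stage overlap for most genes.

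Tubb4b was the most abundant tubulin transcript of GV oocytes. Its level was lowest at 1355, 1624 at the median and highest at 1916 CPM in GV oocytes. In MII oocytes the lowest was 60.2, the median 90.3 and the highest 119 CPM. The stages lay far apart, and Tubb4b was 17.9-fold lower at MII (log2 −4.16 ± 0.17 SE, edgeR adjusted p = 1.61e-11). Tubb2a, the next in abundance, ranged from 759 to 1038 CPM (median 823) at GV and from 49.3 to 190.1 CPM (median 129) at MII. It fell 6.89-fold (log2 −2.78 ± 0.21 SE, edgeR adjusted p = 5.78e-09), and its lowest value was that of the third NSN-MII oocyte. Tubb2b, its near-copy, was rare at GV, from 19.4 to 40.6 CPM (median 24.4), and close to absent at MII, from 0.32 to 2.26 CPM (median 0.941). It fell 23.3-fold (log2 −4.54 ± 0.41 SE, edgeR adjusted p = 5.01e-08), on estimated counts of 2.47 to 18.97 in the MII libraries.

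Tubb6 ranged from 419 to 617 CPM (median 508) at GV and from 24.8 to 166 CPM (median 58.8) at MII. It was 6.93-fold lower (log2 −2.79 ± 0.32 SE, edgeR adjusted p = 1.05e-06), and its MII oocytes differed among themselves by 6.68-fold. Tubb5 ranged from 217 to 303 CPM (median 238) at GV and from 27.6 to 53.2 CPM (median 42.5) at MII, a 6.35-fold fall (log2 −2.67 ± 0.17 SE, edgeR adjusted p = 6.01e-10). No MII oocyte reached the lowest GV oocyte for any of these 5 beta genes.

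Tubb3 went the other way. GV oocytes held 257 to 370.3 CPM (median 321) and MII oocytes 599.8 to 928 CPM (median 669). The highest value was again the third NSN-MII oocyte, and the other 6 MII oocytes lay between 599.8 and 702 CPM, all above every GV oocyte. The rise was 2.17-fold (log2 1.12 ± 0.14 SE, edgeR adjusted p = 2.90e-06). It was log2 1.11 in SN and 1.13 in NSN oocytes alone, but the NSN value leans on the third NSN-MII oocyte. NSN oocytes had 257, 370.3 and 345 CPM at GV and 599.8, 604 and 928 CPM at MII. SN oocytes had 300 to 339 CPM at GV and 646 to 702 CPM at MII. A fit of NSN oocytes alone without the third NSN-MII oocyte was not run. Over both types, the rise without that oocyte was 0.98. Scaling to library totals in place of TMM gave 0.82, and moved the median change of all genes from −0.10 to −0.39.

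Among alpha tubulins, Tuba4a fell most. It lay between 294 and 402 CPM (median 344) in GV oocytes and between 7.42 and 19.4 CPM (median 14.2) in MII oocytes. It was 25.7-fold lower (log2 −4.69 ± 0.22 SE, edgeR adjusted p = 5.03e-11). Tuba1b lay between 142 and 272 CPM (median 204) at GV and between 0.398 and 27.96 CPM (median 19.5) at MII, an 11.2-fold fall (log2 −3.49 ± 0.47 SE, edgeR adjusted p = 5.35e-06). The low end was the third NSN-MII oocyte, with an estimated count of 2.36, and the other 6 MII oocytes lay at 12.3 CPM or more. Without that oocyte the log2 change was −3.24. Tuba1c lay between 211 and 409.8 CPM (median 332.5) at GV and between 40.9 and 181 CPM (median 143) at MII. It had the smallest fall of the 9, 2.45-fold (log2 −1.30 ± 0.25 SE, edgeR adjusted p = 0.000187).

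Tuba1a was close to absent throughout. It had 1.32 to 5.36 CPM (median 2.81) in GV oocytes and was at 0 in 5 of the 7 MII oocytes, with estimated counts of 3.99 and 12.7 in the other two. It was the only gene of the set whose GV and MII values overlapped. The fitted fall was 10.6-fold (log2 −3.41 ± 0.91 SE, edgeR adjusted p = 0.00329), and in NSN oocytes alone it did not pass the test (edgeR adjusted p = 0.183). The size rested on the 2 MII oocytes with counts, since the log2 change was −5.98 without the first NSN-MII oocyte and −5.02 without the third SN-MII oocyte. Since Tuba1a shares much of its sequence with Tuba1b and Tuba1c, these few counts are uncertain. Sums over near-copies do not depend on how their reads were split between them. Tuba1a, Tuba1b and Tuba1c together came to 532 ± 154 CPM in GV oocytes (SD, n = 6) and to 158 ± 55.2 CPM in MII oocytes (SD, n = 7), 3.36-fold less. Tubb2a and Tubb2b together had 885 ± 106 CPM (SD, n = 6) and 131 ± 45.0 CPM (SD, n = 7), 6.75-fold less.

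**Figure D2:**
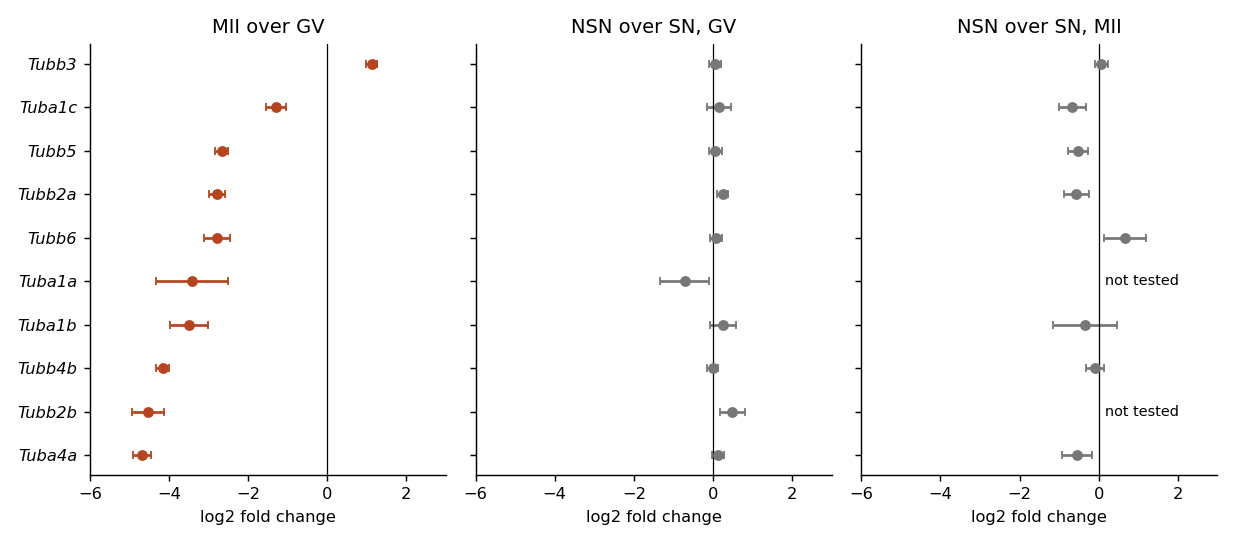
Log2 fold changes of the 10 tubulin genes with standard errors (bars) from edgeR, for MII over GV and for NSN over SN oocytes at each stage. Red points passed an adjusted p of 0.05 and gray points did not; 9 genes lie left of 0 and Tubb3 right of it in the first panel, and no point of the other panels passed.

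Levels of different genes were compared in FPKM, which are scaled by transcript length. In GV oocytes the mean order was Tubb4b at 1071, Tubb2a at 557, Tubb6 at 299 and Tuba4a at 203 FPKM, then Tubb3 at 175, Tuba1c at 168, Tuba1b at 124 and Tubb5 at 93.6 FPKM. Tubb2b (12.99) and Tuba1a (1.81 FPKM) came last. Each of the first 3 genes lay above the next in every library, whereas the neighbors from Tuba4a down to Tubb5 overlapped. In MII oocytes Tubb3 led at 339.6 FPKM, and its lowest library lay above the highest of Tubb2a, which came next at 77.1 FPKM. After it stood Tuba1c at 65.5, Tubb4b at 54.8, Tubb6 at 40.1, Tubb5 at 13.9, Tuba1b at 10.2 and Tuba4a at 7.78 FPKM, and neighbors in this run overlapped. Tubb2b (0.673 FPKM) lay below Tuba4a in every library, and Tuba1a was at 0.161 FPKM.

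The makeup of the beta tubulin pool changed with the stage. Summed over the 8 beta genes listed, the members with Tubb1 and Tubb4a, FPKM went from 2209 ± 151 (SD, n = 6) in GV to 526 ± 47.9 (SD, n = 7) in MII oocytes. Tubb4b made up 48.5% ± 1.75 (SD, n = 6) of the sum at GV and 10.3% ± 1.87 (SD, n = 7) at MII. Tubb2a went from 25.2% ± 1.90 to 14.5% ± 4.62, Tubb6 from 13.5% ± 0.529 to 7.37% ± 4.80 and Tubb5 from 4.23% ± 0.318 to 2.64% ± 0.680 (SD, n = 6 and 7). Tubb3 went from 7.92% ± 0.580 (SD, n = 6) to 65.1% ± 9.22 (SD, n = 7). The lowest MII oocyte had a Tubb3 share of 57.3% and the highest GV oocyte one of 8.79%. These shares are described and were not tested. A share can move because other genes move: Tubb3 rose 2.17-fold in CPM, while the other 9 members summed to 4156 CPM at GV and 509 CPM at MII, 8.17-fold less.

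**Figure D3:**
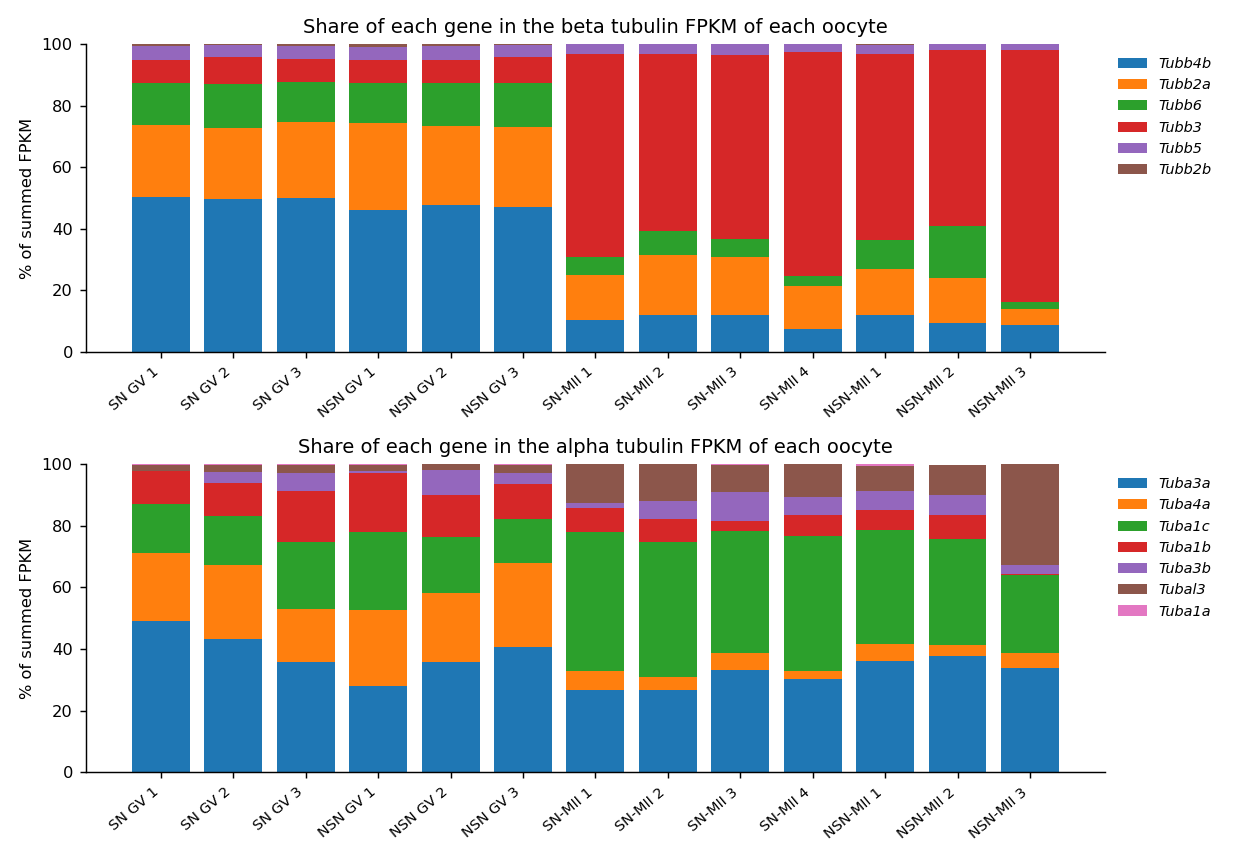
Share of each gene in the summed FPKM of the beta (top) and alpha (bottom) tubulin genes in each of the 13 oocytes, in percent. Tubb3 takes 57.3% or more of the beta sum in each MII oocyte and 8.79% or less in each GV oocyte, and Tuba1c takes a larger part of the alpha sum in MII oocytes.

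The alpha pool held a further abundant gene outside the set, Tuba3a, whose reads can be shared with its near-copy Tuba3b. Over the 8 alpha genes listed, FPKM summed to 892 ± 133 (SD, n = 6) at GV and 166 ± 49.1 (SD, n = 7) at MII. Tuba3a gave 38.7% ± 7.35 of the sum at GV and 32.0% ± 4.33 at MII (SD, n = 6 and 7). Tuba4a went from 23.0% ± 3.37 to 4.66% ± 1.31 and Tuba1b from 13.7% ± 3.59 to 5.67% ± 2.83. Tubal3, also outside the set, went from 2.18% ± 0.372 to 13.6% ± 8.57, with 32.7% in the third NSN-MII oocyte. Its level did not fall, at 43.7 to 64.6 CPM in GV and 47.1 to 85.6 CPM in MII oocytes. Tuba1c went from 18.6% ± 4.204 to 38.5% ± 7.03. Its FPKM were 1.25 to 1.51 times those of Tuba1b in GV oocytes and 4.37 to 12.04 times in 6 of the MII oocytes. In the third NSN-MII oocyte the ratio was 88.2. The ratio of these near-copies rests on RSEM's split of the reads they share. The summed beta FPKM were 2.22 to 2.91 times the alpha FPKM in GV oocytes and 2.65 to 3.17 times in 6 MII oocytes. That ratio was 7.48 in the third NSN-MII oocyte, where Tuba1b, Tuba1c, Tuba4a, Tubb2a and Tubb6 each had their lowest CPM among MII oocytes. The part that the depth or the RNA of that library plays in these ratios was not tested.

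**Figure D4:**
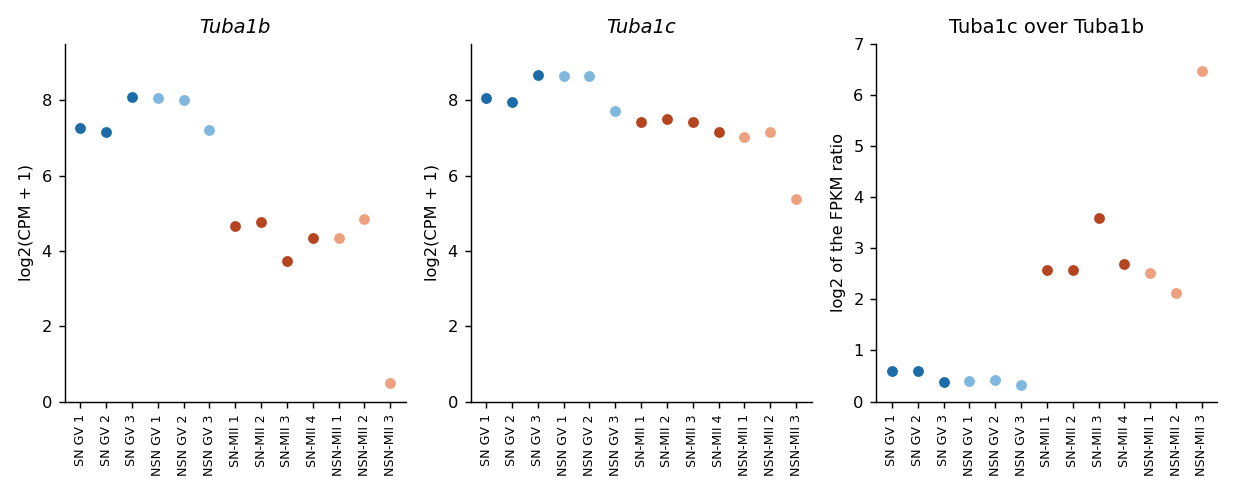
Levels of Tuba1b and Tuba1c, as log2(CPM + 1), and the log2 ratio of their FPKM in each oocyte. The GV oocytes split for both genes without regard to type, all MII oocytes lie lower for Tuba1b, and the ratio is 1.25 to 1.51 at GV and 4.37 or more at MII.

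Within each stage, tubulin mRNA of NSN oocytes was set against that of SN oocytes, to ask whether its level goes with the chromatin type. At GV, none of the 10 genes was called, and none had an unadjusted p under 0.05 (edgeR's quasi-likelihood test). Of all 10839 genes in this fit 0% passed, and 183 reached an unadjusted p below 0.05. DESeq2 called none of the 10 either. Tubb2a was the 1 gene whose groups did not overlap, where 6.04% of the genes tested did not. It had 799, 759 and 809.7 CPM in SN and 836, 1038 and 900.4 CPM in NSN GV oocytes. The difference was a log2 of 0.24 ± 0.14 SE (edgeR adjusted p = 0.999975). Tubb4b had a log2 difference of −0.01 ± 0.14 SE and Tubb3 of 0.05 ± 0.16 SE, and the widest were −0.72 ± 0.61 SE for Tuba1a and 0.49 ± 0.32 SE for Tubb2b. Within the beta sum in FPKM, Tubb2a made up 23.7% ± 0.641 in SN and 26.7% ± 1.39 in NSN GV oocytes, and Tubb4b 50.03% ± 0.436 and 47.0% ± 0.758 (SD, n = 3 each). These were the 2 of 16 alpha and beta shares at GV that did not overlap between the types, and 2 of 16, those of Tuba1c and Tuba3a, did not at MII. Shares within a class depend on each other, so the 2 genes at each stage, which are of 1 class, are not independent. The shares were not tested, and no such count over all genes was made.

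Tuba1b and Tuba1c varied among GV oocytes in a way that did not follow type. Tuba1b had 153, 142 and 272 CPM in the SN and 266, 256 and 146 CPM in the NSN GV oocytes. Tuba1c had 267, 248 and 409.8 CPM in the SN and 402, 398 and 211 CPM in the NSN GV oocytes. The third SN and the first and second NSN oocytes were thus the higher ones for both genes. The split was not particular to them, and other genes, picked with their values known, showed it too. Cct4 had 152 to 216 CPM in these 3 oocytes and 52.2 to 73.9 CPM in the other 3. Map1s had 35.5 to 45.4 and 21.7 to 26.7 CPM. TMM factors of the higher oocytes were 1.171 in the third SN, 1.26 in the first NSN and 1.088 in the second NSN oocyte. In the other 3 they were 1.056 to 1.085, so the second NSN oocyte was hardly apart from them. The part this plays was not tested. The same split was visible in FPKM, where Tuba1b was 145 or more in these 3 and 86.9 or less in the others. Coefficients of variation over the 6 GV oocytes were 31.4% for Tuba1b and 28.01% for Tuba1c, 31.0% for Tubb2b and 50.3% for Tuba1a, and 10.5% to 13.3% for Tuba4a, Tubb2a, Tubb3, Tubb4b, Tubb5 and Tubb6.

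At MII, 8 tubulin genes had enough counts to be tested, and Tuba1a and Tubb2b did not. None of the 8 was called or had an unadjusted p under 0.05 with edgeR's quasi-likelihood test, and DESeq2 called none. Of the 10028 genes tested, 0.279% were called. Tuba1c was the 1 gene whose groups did not overlap, which held for 10.2% of the genes tested. It had 169.9, 181, 172 and 143 CPM in SN-MII and 129, 141 and 40.9 CPM in NSN-MII oocytes (log2 −0.67 ± 0.34 SE, edgeR adjusted p = 0.594). Without the third NSN-MII oocyte the log2 difference was −0.29. Tubb5 (log2 −0.52 ± 0.25 SE), Tubb2a (−0.57 ± 0.32 SE) and Tuba4a (−0.54 ± 0.38 SE) also had lower means in NSN-MII oocytes, with overlapping groups. Without the third NSN-MII oocyte these came to −0.42, −0.24 and −0.32. Tubb6 had 57.9, 86.4, 58.8 and 30.8 CPM in SN-MII and 86.1, 166 and 24.8 CPM in NSN-MII oocytes. Its log2 difference of 0.67 ± 0.53 SE came to −0.07 without the second NSN-MII oocyte and to 1.11 without the third, and the test was not passed either way (edgeR adjusted p = 0.987 and 0.161). Tubb3 had 685, 669, 646 and 702 CPM in SN-MII and 599.8, 604 and 928 CPM in NSN-MII oocytes, a log2 difference of 0.06 ± 0.16 SE. It came to −0.16 without the third NSN-MII oocyte.

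A change of the NSN to SN difference with the stage was tested as an interaction. No tubulin gene was called in it or had an unadjusted p under 0.05 (edgeR's quasi-likelihood test), and DESeq2 called none. Over all 11375 genes, 0.0176% were called. The nearest was Tubb2a, higher in NSN oocytes at GV and lower at MII (log2 interaction −0.80 ± 0.40 SE, edgeR adjusted p = 0.956), followed by Tubb5 (−0.57 ± 0.32 SE).

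Genes that work with tubulin were counted in the MII against GV comparison. Over all genes in it, 68.5% were called, 31.7% higher and 36.8% lower at MII. The tubulin folding cofactors, which assemble the alpha and beta subunits into a dimer, fell in 6 of 6 genes tested (median log2 −2.41). Arl2, the small GTPase of this system, fell from 79.6 ± 18.5 CPM (SD, n = 6) to 7.07 ± 2.36 CPM (SD, n = 7), a log2 of −3.49. Tbcb (log2 −3.01) and Tbcc (−2.82) fell as well. Of the 14 CCT chaperonin and prefoldin genes, which fold new tubulin and actin, 9 fell, none rose and 5 were not called (median −1.51). The share called was thus near that over all genes, and the direction was to lower levels alone. The widest falls were those of Pfdn6 (log2 −4.60), Cct5 (−3.93) and Cct3 (−3.05). Cct5 went from 787 ± 102 CPM (SD, n = 6) to 50.9 ± 10.1 CPM (SD, n = 7). Scaling to library totals raised the number of CCT and prefoldin genes that fell to 11.

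In the pathway that degrades tubulin mRNA when dimer is in excess, Ttc5, the factor that recognizes new tubulin chains, fell from 34.5 ± 6.67 CPM (SD, n = 6) to 3.74 ± 3.09 CPM (SD, n = 7), a log2 of −3.17. Scaper, the adaptor that TTC5 recruits, rose by a log2 of 0.69, a call that was not made in SN oocytes alone, and Cnot11, a deadenylase subunit, had −0.16 ± 0.23 SE and was not called. Of 7 other tubulins tested, 3 rose and 3 fell. Tuba3a, an alpha tubulin, fell (log2 −2.56), as did the delta tubulin Tubd1 (−2.17), and the gamma tubulin Tubg2 rose (0.94). The third to fall was Tuba3b, whose stages overlapped and which DESeq2 did not call. Of 8 genes of the gamma-tubulin ring complex, which nucleates microtubules, 3 rose, 2 fell and 3 were not called, near the shares over all genes (68.5% called, 31.7% higher, 36.8% lower). Tubgcp2 (log2 −4.94) and Mzt2 (−4.49) fell, and Nedd1, which targets the complex to the spindle, rose (1.39).

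Of 20 tubulin modifying enzymes tested, 4 rose, 9 fell and 7 were not called. The share called was close to the 68.5% over all genes, where 31.7% were higher and 36.8% lower. The deacetylase Sirt2 (log2 −5.30), the vasohibin cofactor Svbp (−4.04) and Ttll12 (−2.66) fell most among those whose stages did not overlap. Leaving out any 1 library gave 7 or 8 of these enzymes that fell. Without the third NSN-MII oocyte the number in each direction moved by 1 at most in the other lists. Of 25 genes for microtubule dynamics proteins, 15 rose, 5 fell and 5 were not called (median log2 0.91). With library totals the numbers were 12 and 7. Among those that fell were the severing factor Katnal2 (log2 −2.68) and the microtubule-associated protein Map1s (−1.94). Chosen after their values were seen, Clasp2 (log2 1.71), Map1b (1.52) and Ckap5 (1.46), which stabilize or lengthen microtubules, are examples of those that rose. The examples do not stand for their kind of protein. Spast, also a severing factor, had 47.3 to 143 CPM in GV and 173 to 219 CPM in MII oocytes. The stabilizer Camsap3 had 22.0 to 57.4 CPM in GV and 3.71 to 21.5 CPM in MII oocytes. These too were picked with their values known. No gene of these lists was called in either NSN against SN comparison or in the interaction.

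**Figure D5:**
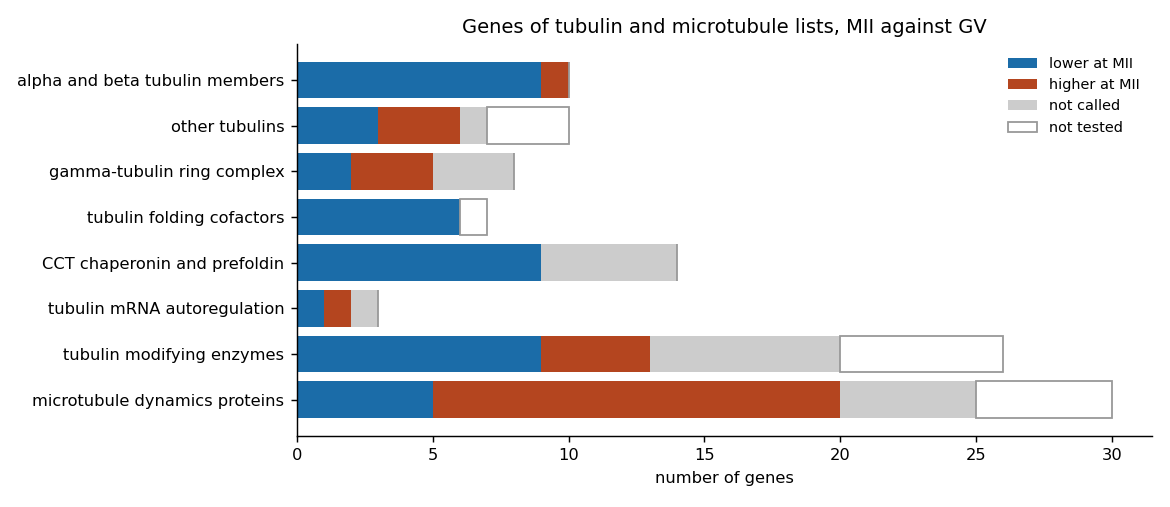
Number of genes lower (blue), higher (red), not called (gray) and not tested (open) at MII against GV in each list, by edgeR at an adjusted p of 0.05. Of the tubulin genes 9 of 10 and of the folding cofactors 6 of 6 tested are lower, and 15 of the 25 tested microtubule dynamics genes are higher.

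The genes nearest to Tubb4b in pattern were BC004004, Agpat2 and Eif2b4. Their Euclidean distances over centred log2(FPKM + 1) in the 13 libraries were 0.508, 0.659 and 0.727. This is a description of likeness, since many genes share the fall between the stages.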

How the data were processed

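Single-oocyte cDNA was made with the SMART-seq2 protocol and tagmented with Tn5. The authors trimmed reads with Trim Galore 0.4.4, mapped them to mm10 with Bowtie2 2.3.5 and quantified genes with RSEM 1.2.28. The submitters' notes also name DESeq2 1.20.0, for normalization. The expected counts deposited by the authors, 1 table per stage, share out reads that fit several genes, which matters for the Tuba1 and Tubb2 copies. The FPKM values deposited by the authors hold all 13 libraries. The files hold no strand information or molecular identifiers, and reads of PCR copies are not independent molecules.

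Counts were rounded, filtered with filterByExpr, scaled by TMM and tested with edgeR 4.0.16 (R 4.3.3), quasi-likelihood with robust dispersion, with Benjamini-Hochberg adjustment over all genes tested. Calls had an adjusted p under 0.05. Standard errors are the log2 change over the root of F. GV and MII were compared over all libraries with 1 mean per group, NSN and SN within a stage, and the interaction in 1 model. Groups were taken from the labels, and no 2 libraries of a group were copies. Total counts were 7140416 to 8846287, and the precision of rare members is limited by their counts. DESeq2 1.42.0, limma 3.58.1 on log2(FPKM + 1) or + 0.1, other scalings, no filter, a replicate block, 1 type alone and leaving out each library were alternatives. The edgeR step was tested on simulated data. Named genes were all members, up to 3 called genes per list with the largest change and no overlap, and the 3 nearest to Tubb4b. The members and lists were chosen with earlier results of these data known. Coordinates, transcripts and sequences came from GENCODE M21, in which 18887 of the 18939 symbols were found. Reads and imaging were not analysed here. Some items that these rules would name are not reported here.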

Additional observations from a re-analysis of the deposited data

Results flagged for a closer look

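Single libraries stood apart from the rest of their group for 4 alpha or beta tubulin genes at MII and for the rare Tuba1a. In each, the gap to the next library exceeded Dixon's 95% critical value for the group's range. The 10 genes were examined in 3 groups of libraries each, all GV, all MII and SN-MII oocytes, and chance flags about 5% of such groups. Tuba1c was at 40.9 CPM in the third NSN-MII oocyte, and the next lowest MII oocyte had 129 CPM. Tubb3 was at 928 CPM in the same oocyte, and the next highest had 702 CPM. Tuba4a was at 8.04 CPM in the fourth SN-MII oocyte, with 17.6 CPM the next lowest of its group, and Tubb5 was at 34.6 CPM in that oocyte, with 50.3 CPM next. Tuba1a was at 0.524 CPM in the third SN-MII oocyte, where the other 3 of the group were at 0, so that any count would have been singled out (the estimated count was 3.99), and at 1.51 CPM in the first NSN-MII oocyte, the highest of the 7 MII oocytes.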

How the results depend on the processing

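Between the stages, 9 tubulin genes were called lower and 1 higher with edgeR, with DESeq2, with DESeq2's size factors, with library totals, without a filter, with a fold of 1.5 required, in SN oocytes alone and without any 1 library, which gave 10 calls each time. In NSN oocytes alone and with limma on FPKM the numbers were 8 and 1. Tuba1a was the gene missing, since in NSN oocytes its adjusted p was 0.183 and in FPKM its mean was under 1. No tubulin gene reversed direction between the stages in any alternative. The NSN against SN comparisons and the interaction gave 0 tubulin calls in each alternative. Over all genes, the MII comparison of types gave 28 calls with edgeR, 217 with DESeq2, 57 without the filter, 16 with library totals, 9 with limma, and from 3, without the first NSN-MII oocyte, to 240, without the third. The interaction gave 2, 39 and 6 with edgeR, DESeq2 and no filter, and 0 to 12 without 1 library. The replicate numbers of the labels were not taken to pair the oocytes. Deviations of same-numbered libraries from their group means correlated at −0.22, −0.21 and −0.46 at GV and at 0.02, 0.10 and −0.12 at MII. Those of libraries with different numbers lay between −0.22 and 0.40. With so few libraries per group, this cannot settle whether oocytes share an animal or a day of collection. A replicate block left 10 tubulin calls between the stages and 0 in the other comparisons, and gave 3 calls over all genes at MII. In NSN oocytes alone 4 folding cofactors fell and 10 microtubule dynamics genes rose, and limma also gave 10 of the latter. Counts of other lists under other scalings and without the third NSN-MII oocyte, and shares over member genes alone, were chosen after seeing the data. Over member genes alone Tuba1c had 79.9% of the alpha sum in SN-MII and 34.4% in SN GV oocytes. Rare members at MII, Tuba1a and Tubb2b, are limited by counts.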
